A study of Mus musculus with 20 samples.

Results

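Autophagy genes were examined as a set of 43 members among the 51789 genes of the deposited table of aged mouse intervertebral disc. The members were taken by symbol: the genes of the initiating kinase complex, the lipid kinase complex, the lipid-binding and lipid transfer proteins, the conjugation enzymes, the Atg8 family, the cargo receptors, the mitophagy receptors with Pink1, and the MiT transcription factors. All 43 were found, and all 43 passed the filter, a level of at least 1 FPKM in 5 or more of 20 libraries. BL6 mice were assigned at random, at 18 months of age, to intraperitoneal DMSO (vehicle) or to MDL-800 given in an equal amount of DMSO. Injections are stated per week, without their number, dosing lasted 6 months, and the mice were killed at 24 months. The gel-like core of the disc, the nucleus pulposus (NP), and its outer ring of layered collagen, the annulus fibrosus (AF), were dissected as tissue, though the sample titles speak of cells. Each tissue had 5 vehicle and 5 MDL-800 libraries, 4 groups in all. All groups therefore share the age, the strain and the solvent, and no untreated or young group is among them. MDL-800 is a small-molecule activator of SIRT6, the chromatin deacylase named in the series title. The labels do not say whether each library came from a separate mouse, so the p-values measure the spread between these libraries only. Libraries are named by group and number, and values within a group are always listed in order of that number: 1, 2, 3, 5 and 6 for NP vehicle, 15, 18, 19, 20 and 22 for NP MDL-800, 8, 9, 10, 12 and 13 for AF vehicle, and 25, 27, 28, 29 and 30 for AF MDL-800.

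Autophagy encloses cytoplasm in a double membrane and delivers it to the lysosome. The Ulk1 kinase complex starts the process, the Becn1 lipid kinase complex marks the membrane with phosphatidylinositol 3-phosphate, and a pair of ubiquitin-like conjugation reactions attaches Atg8 proteins (the LC3 and GABARAP families) to the growing membrane. Receptors such as Sqstm1 bind cargo and Atg8 proteins together, and Bnip3, Bnip3l, Fundc1 and Pink1 direct the process to mitochondria. NP cells live without blood vessels at low oxygen, and Bnip3 is a known target of the hypoxia-inducible factor HIF-1. Transcript levels do not measure autophagic flux, which depends largely on protein modification and turnover.

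Values are FPKM (fragments per kilobase of transcript, relative to all mapped fragments, a level per length) divided by a scaling factor of each library, and differences are on the scale log2(scaled FPKM + 1), tested with limma. A gene is called where the adjusted p over all 16383 genes tested is under 0.05. Depth was estimated at 12.68 to 22 M fragments a library. The labelled tissues matched their markers: 11 NP markers summed to 27841 to 35874 scaled FPKM in the NP libraries and to 2907 to 16177 in the AF libraries, with AF vehicle library 9 at the top of the AF range. All 9 lists of markers of neighbouring tissue and blood cells had a higher median sum in AF, and for muscle alone a single NP library, vehicle 3 at 1488, reached the AF range. Muscle markers summed to 13.3 to 1488 in NP vehicle and 1175 to 10419 in AF vehicle, neutrophil markers to 209 to 3305 and 7863 to 20570, macrophage and osteoclast markers to 146 to 461 and 1665 to 2928, and red cell markers to 49.2 to 186 and 663 to 2140. No marker of these lists was at 0 in all 5 libraries of a group. In such bulk tissue, fewer cells of a type and less RNA per cell cannot be told apart.

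Promoter sequence is shown for 4 members: Bnip3 and Ulk1, which had the largest differences among those higher in NP, Atg4a, which had the largest among those lower, and Atg5, a lower member whose window holds the same motif as that of Bnip3. The RefSeq table (GRCm38.p6, the build mm10) held 45 windows for 36 of the 43 members, each the 250 bases before an annotated transcript start. They are printed 5′ to 3′ on the strand of the gene, with the motif CACGTG in capitals.
Bnip3, chr7:138909507-138909756, minus strand: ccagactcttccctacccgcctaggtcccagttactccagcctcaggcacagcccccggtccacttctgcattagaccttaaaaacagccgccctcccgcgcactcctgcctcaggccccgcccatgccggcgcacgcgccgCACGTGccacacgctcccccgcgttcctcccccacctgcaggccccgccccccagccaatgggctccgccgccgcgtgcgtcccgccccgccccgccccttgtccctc
Ulk1, chr5:110810082-110810331, minus strand: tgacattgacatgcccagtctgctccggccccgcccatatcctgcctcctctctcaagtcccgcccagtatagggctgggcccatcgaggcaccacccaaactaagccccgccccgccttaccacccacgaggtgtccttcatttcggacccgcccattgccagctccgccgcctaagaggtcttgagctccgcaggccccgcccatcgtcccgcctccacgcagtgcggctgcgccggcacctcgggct
Atg4a, chrX:140956657-140956906, plus strand, the second of 2 windows: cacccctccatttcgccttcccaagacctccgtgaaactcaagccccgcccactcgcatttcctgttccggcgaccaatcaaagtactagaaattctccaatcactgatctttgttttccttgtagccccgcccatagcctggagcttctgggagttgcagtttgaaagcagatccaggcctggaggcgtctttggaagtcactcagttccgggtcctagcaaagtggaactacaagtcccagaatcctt
Atg5, chr10:44268089-44268338, plus strand: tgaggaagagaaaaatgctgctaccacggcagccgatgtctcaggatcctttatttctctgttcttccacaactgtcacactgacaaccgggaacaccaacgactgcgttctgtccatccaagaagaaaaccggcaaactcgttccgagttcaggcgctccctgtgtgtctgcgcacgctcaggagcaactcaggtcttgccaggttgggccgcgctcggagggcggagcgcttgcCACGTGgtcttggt
Searched on both strands were ACGTG, a form of the core of the hypoxia response element, and CACGTG, the E-box that MiT factors can bind. Other forms of that core, such as GCGTG, were not searched, so a window without ACGTG may still hold a core. Each CACGTG holds ACGTG on both strands, so the 2 motifs overlap. The Bnip3 window held CACGTG once, with its first letter 108 bases before the start, and the Atg5 window held it 14 bases before the start. The printed windows of Ulk1 and Atg4a held neither motif, while the other window of Atg4a, which is not printed, held ACGTG 48 bases before its start. Among members, 15 of 45 windows (33.3%) held ACGTG, against 16.6% of all 32851 windows, and 4 (8.89%, those of Bnip3, Atg7, Atg5 and Atg3) held CACGTG, against 6.02%. Of these 4 genes Bnip3 was higher in NP while Atg7, Atg5 and Atg3 were lower, so the windows with the motif included both directions. These matches describe letters in the windows and were not tested for binding.

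The comparison of NP with AF asked which autophagy transcripts differ between the compartments of the old disc. In vehicle mice 27 of the 43 members were called (62.8%), where 55.7% of all genes tested were. Of these, 14 were higher in NP (background 21.8%) and 13 were lower (background 33.9%). Receptors and mitophagy genes made up 7 of the 14 that were higher, led by Bnip3, Bnip3l, Nbr1 and Fundc1, and 6 of the 13 that were lower were conjugation enzymes, led by Atg4a and Atg7. The groups of 5 did not overlap for 16 members (37.2%, background 41%). Over the members the median log2 difference was 0.05, and over all genes tested it was -0.08. The median size of the difference was 0.36 among members and 0.47 among all genes. The share of members called was thus near that of all genes, of which 9127 were called.

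**Figure D1:**
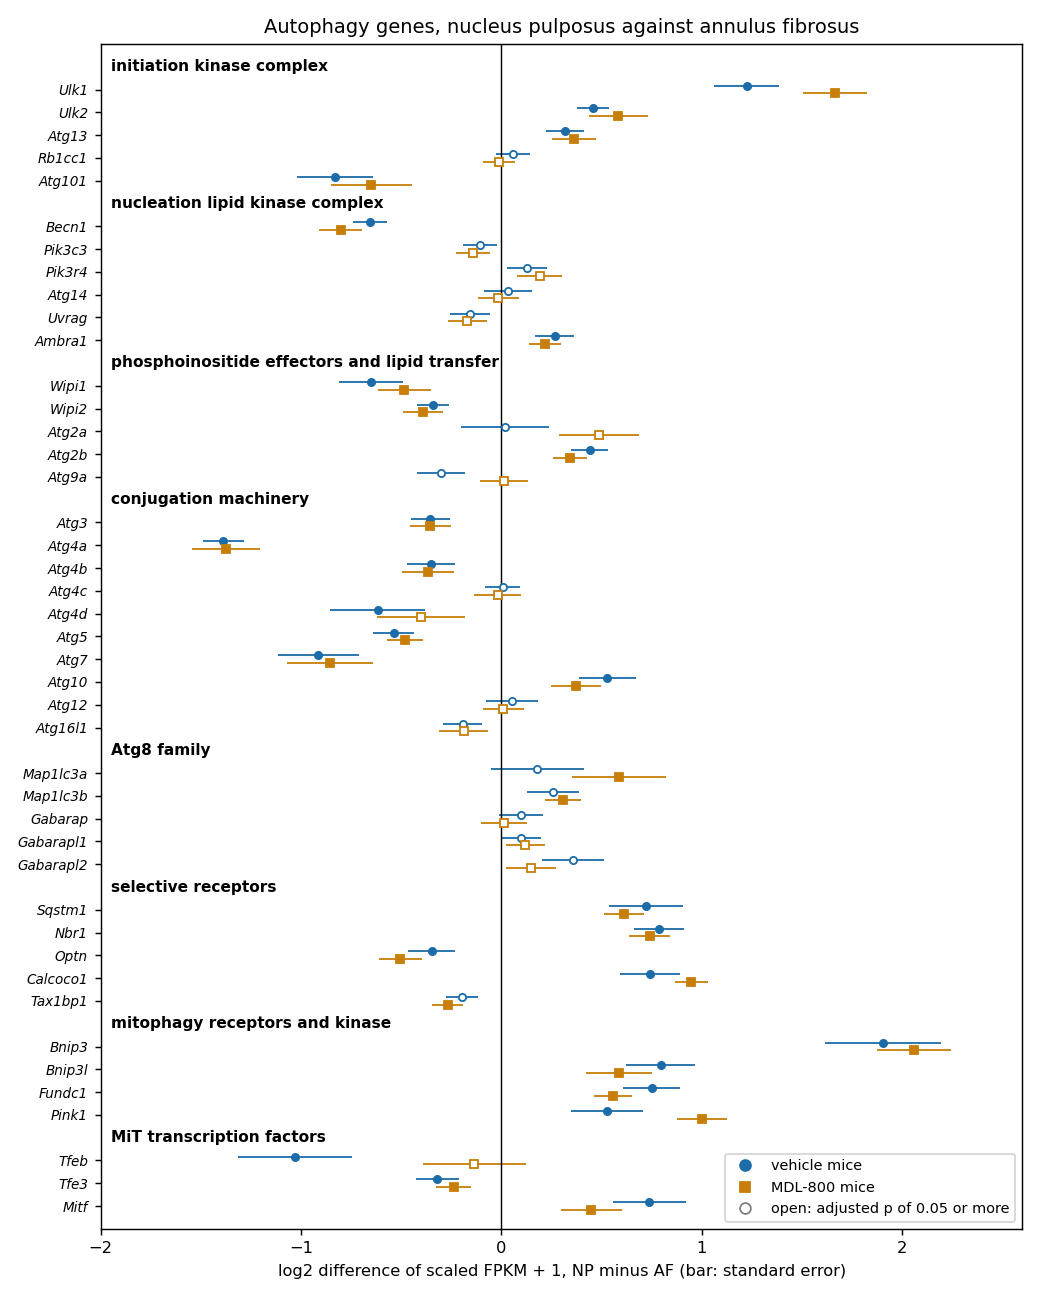
Log2 difference between NP and AF for each of the 43 autophagy genes, by role, in vehicle mice (circles) and MDL-800 mice (squares), with standard errors; filled symbols have a limma adjusted p under 0.05. Bnip3 lies farthest to the right, at 1.90 and 2.06, and Atg4a farthest to the left, at -1.39 and -1.38.

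In MDL-800 mice, whose libraries are separate from those of the vehicle mice, 28 members were called (65.1%, background 62.8%), 16 higher in NP (background 25.6%) and 12 lower (background 37.2%). The groups did not overlap for 19 members (44.2%, background 49.1%). The members called in both comparisons in the same direction numbered 25, 14 higher and 11 lower. They were 92.6% of those called in vehicle mice and 89.3% of those called in MDL-800 mice, where over all genes these shares were 90.7% and 80.5%. No member was called in opposite directions, and 13 were called in neither comparison. The balance of directions depends on the scaling of the libraries: quantile normalization shifted the median of all genes from -0.08 to 0.19 in vehicle mice and gave 19 members higher and 5 lower, scaling to the protein-coding sum gave 16 and 9, and removing the trend with GC content gave 19 and 7. After MDL-800 the same settings gave 20 and 6, 17 and 11, and 22 and 5, and no scaling gave 11 and 14. Over 8 other settings and 10 fits that each left out a library, 16 of the 27 calls in vehicle mice and 14 of the 28 in MDL-800 mice were kept throughout. In vehicle mice the call was lost in at least 1 of these fits for Ambra1, Wipi1, Wipi2, Atg3, Atg4b, Atg4d, Atg5, Optn, Pink1, Tfeb and Tfe3. In MDL-800 mice it was lost for Atg101, Ambra1, Wipi1, Wipi2, Atg3, Atg4b, Atg5, Atg10, Map1lc3a, Map1lc3b, Optn, Tax1bp1, Tfe3 and Mitf. In these fits the called members kept their direction except Tfe3 in MDL-800 mice, which went from -0.24 to 0.04 with the GC trend removed.

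The 4 members grouped here as mitophagy receptors with Pink1 were called higher in NP in both comparisons (background 21.8% and 25.6%). Optn, grouped with the cargo receptors below though it also serves mitochondria, had lower values in NP. Of 10 mitophagy genes outside the members, 2 were higher and 2 lower in vehicle mice, and 3 and 3 in MDL-800 mice. Bnip3 (a receptor in the outer mitochondrial membrane, chromosome 7, 138890836 to 138909519, minus strand) had the largest difference of all members. Its scaled FPKM was 793, 912, 1013, 859.9 and 805 in the NP vehicle libraries and 155, 405, 325, 259.8 and 127 in the AF vehicle libraries. All 5 NP libraries were above all 5 AF libraries, and the log2 difference was 1.90 (SE 0.29, limma adjusted p = 0.000271), or 3.74-fold. Under MDL-800 treatment the NP libraries had 889, 1002, 874, 886 and 749 for Bnip3, and the AF libraries 308, 233, 147, 225 and 171, again without overlap, with a log2 difference of 2.06 (SE 0.19, limma adjusted p = 6.39e-06). With a mean of 876 ± 89.9 (SD, n = 5), Bnip3 was the most abundant member in NP vehicle. Within AF the highest Bnip3 value, 405, was in library 9, which also had the highest sum of NP markers (16177, against 2907 to 7718 in the other 4). Without that library the log2 difference was 2.10, and whether NP tissue contributed to its value was not tested.

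Bnip3l, the paralog that clears mitochondria from maturing red cells, was at 581, 636, 550.0, 554 and 545 in NP vehicle and at 277, 508, 345, 302 and 266 in AF vehicle. The NP libraries again lay above all AF libraries, with AF library 9 standing closest to them, and the log2 difference was 0.79 (SE 0.17, limma adjusted p = 0.0026), which became 0.95 without AF library 9. In MDL-800 mice its values were 473, 536, 514, 518 and 505 in NP and 391, 287, 397, 233 and 426 in AF, a log2 difference of 0.59 (SE 0.16, limma adjusted p = 0.00899). The paralogs differed in their proportion between the tissues. Bnip3 made up 60.4% ± 2.73 (SD, n = 5) of the sum of both in NP vehicle and 41.5% ± 6.98 in AF vehicle. The share ranged over 57.7% to 64.8% and 32.4% to 48.5%, so that Bnip3 was the larger part in every NP vehicle library and Bnip3l in every AF vehicle library. The same held in MDL-800 mice, at 63.3% ± 2.24 and 38.7% ± 10.1. Red cell markers summed to 49.2 to 186 in NP vehicle and, by library, to 1412, 2140, 1338, 663 and 1062 in AF vehicle. AF vehicle library 9 was highest in both this sum and Bnip3l. The lowest sum, however, went with a Bnip3l of 302, above 277 and 266. In AF MDL-800 the sums were 1515, 625, 2238, 704 and 3335, and the library with the highest sum again had the most Bnip3l. The part of red cells in the Bnip3l level and in these shares was not tested.

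Fundc1, a mitochondrial receptor regulated by oxygen supply through its phosphorylation, was at 46.8, 57.3, 47.0, 43.9 and 41.5 in NP vehicle and 25.0, 35.5, 27.2, 31.0 and 21.0 in AF vehicle. Its groups did not overlap, and the log2 difference was 0.75 (SE 0.14, limma adjusted p = 0.0011) in vehicle mice and 0.56 (SE 0.09, limma adjusted p = 0.000409) in MDL-800 mice. Pink1, the kinase that marks damaged mitochondria with phospho-ubiquitin, was at 162, 203, 206, 227 and 222 in NP vehicle and 99.7, 186, 170.3, 149 and 115 in AF vehicle. Here the ranges overlapped: the lowest NP library was below 2 AF libraries. The log2 difference was 0.53 (SE 0.18, limma adjusted p = 0.0265), and it did not pass the threshold without AF vehicle library 8 or 13 or NP vehicle library 5 or 6 (log2 differences of 0.40 to 0.49, adjusted p of 0.0567 to 0.0644), nor without scaling (0.46, adjusted p = 0.0707). In MDL-800 mice the NP libraries had 255, 284, 254, 272 and 250.2 for Pink1, and the AF libraries 135, 146, 102, 164 and 117, without overlap, with a log2 difference of 1.00 (SE 0.12, limma adjusted p = 5.22e-05).

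**Figure D2:**
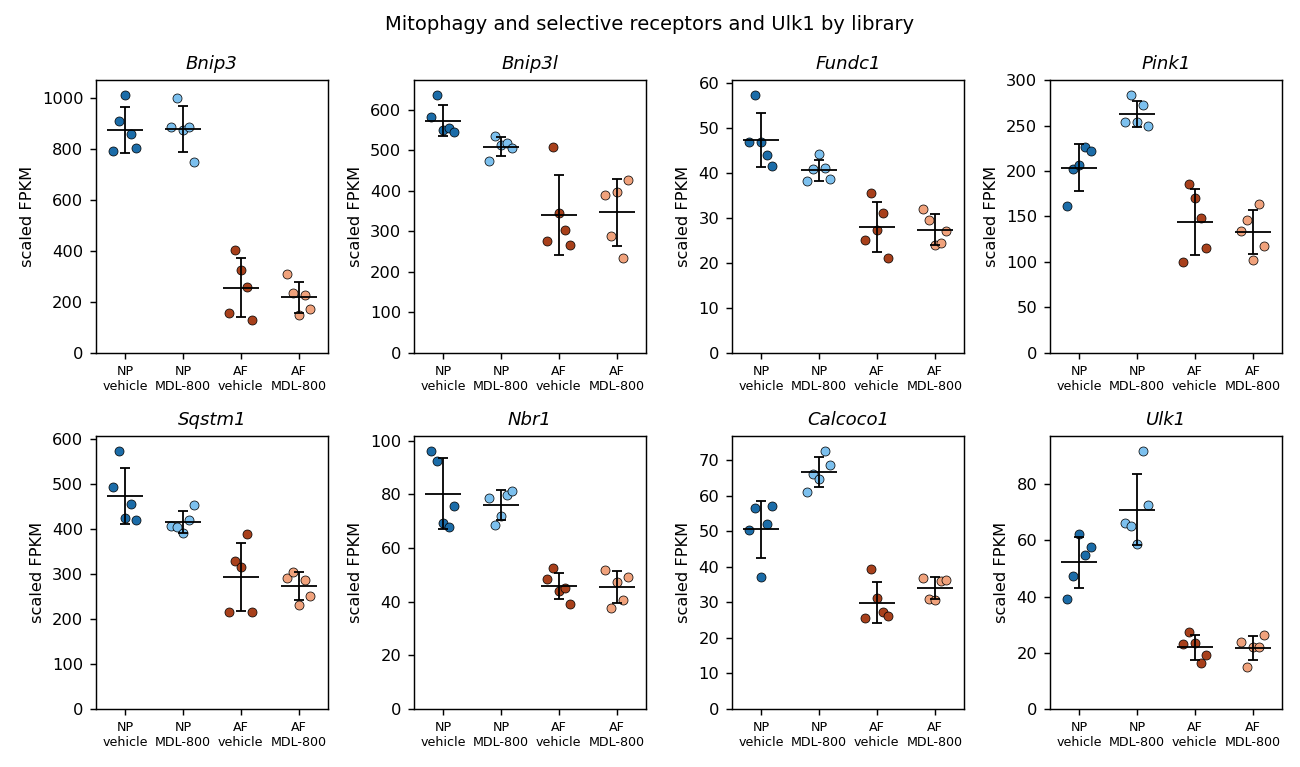
Scaled FPKM by library (points, in order of library number) with mean and SD (bars, n = 5) for the mitophagy receptors with Pink1, 3 cargo receptors and Ulk1 in the 4 groups. The NP libraries of Bnip3, from 749 to 1013, lie above the AF libraries, from 127 to 405; AF vehicle library 9 is the second point of its group.

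Of the 5 cargo receptors, 3 were higher in NP in both comparisons (background 21.8% and 25.6%) and 2 were not. Sqstm1 (p62, which joins ubiquitin-marked cargo to Atg8 proteins, chromosome 11, 50199366 to 50210827) was at 493, 572, 424, 455 and 420.1 in NP vehicle and 215, 329, 316, 389 and 215 in AF vehicle. The lowest NP library was just above the highest AF library, 12, and the log2 difference was 0.72 (SE 0.18, limma adjusted p = 0.00656). After MDL-800 the NP libraries had 405, 404, 389, 419 and 453 for Sqstm1, and the AF libraries 289, 304, 229.9, 287 and 249.6, a log2 difference of 0.61 (SE 0.10, limma adjusted p = 0.000349). Nbr1, a receptor with the same layout of domains, was at 96.0, 92.5, 69.4, 67.7 and 75.7 in NP vehicle and 48.3, 52.6, 43.9, 45.0 and 39.2 in AF vehicle. All NP libraries were higher, with log2 differences of 0.79 (SE 0.13, limma adjusted p = 0.000353) in vehicle and 0.74 (SE 0.10, limma adjusted p = 0.000103) in MDL-800 mice. Calcoco1, a receptor for parts of the endoplasmic reticulum and the Golgi, was at 50.2, 56.5, 37.1, 52.0 and 57.0 in NP vehicle and 25.6, 39.4, 31.3, 27.1 and 26.0 in AF vehicle. Its lowest NP library, 3, was below the highest AF library, 9, and the log2 difference was 0.74 (SE 0.15, limma adjusted p = 0.0017). In MDL-800 mice its groups did not overlap, at 61.1, 66.1, 64.8, 72.5 and 68.7 in NP and 36.8, 31.0, 30.5, 36.0 and 36.2 in AF, with a log2 difference of 0.95 (SE 0.08, limma adjusted p = 5.54e-06).

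The other two receptors had lower values in NP. Optn (optineurin, a receptor for mitochondria and bacteria) was at 11.7, 10.5, 11.5, 11.3 and 11.5 in NP vehicle and 11.4, 14.9, 15.0, 18.5 and 14.4 in AF vehicle. The NP libraries lay in a narrow range, and all AF libraries except 8 were above it. The log2 difference was -0.35 (SE 0.12, limma adjusted p = 0.0263), lost without AF vehicle library 10 or 12 or NP vehicle library 2 (log2 differences of -0.34 to -0.27, adjusted p of 0.0504 to 0.06) and under quantile normalization and removal of the GC trend (-0.09 in each, adjusted p = 0.556 and 0.512). In MDL-800 mice, where the groups did not overlap, it was -0.50 (SE 0.11, limma adjusted p = 0.00167), and -0.22 (adjusted p = 0.0845) with the GC trend removed. Tax1bp1, a receptor for protein aggregates, was at 63.0 ± 4.76 in NP vehicle and 72.2 ± 3.08 in AF vehicle (SD, n = 5), without overlap but with a limma adjusted p of 0.0614. In MDL-800 mice it was called lower in NP, at -0.27 (SE 0.08, limma adjusted p = 0.0109), which was -0.14 (adjusted p = 0.116) with the GC trend removed. Summed over the 5 receptors, the level was 678 ± 79.2 in NP vehicle and 455 ± 85.5 in AF vehicle (SD, n = 5), and Sqstm1 made up 69.7% ± 2.01 and 63.5% ± 4.91 of it.

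In the initiating kinase complex 3 of 5 genes were higher in NP and 1 was lower, in both comparisons. Over all genes tested, 21.8% were called higher and 33.9% lower in vehicle mice, and 25.6% and 37.2% in MDL-800 mice. Ulk1 (the kinase that starts autophagy, chromosome 5, 110784488 to 110810097, minus strand) was at 39.1, 47.4, 62.2, 54.9 and 57.5 in NP vehicle and 23.1, 27.5, 23.5, 16.3 and 19.0 in AF vehicle. The groups were well apart, and the log2 difference was 1.22 (SE 0.16, limma adjusted p = 0.000107), or 2.33-fold. Under MDL-800 treatment the NP libraries had 66.2, 65.0, 58.9, 91.8 and 72.7 for Ulk1, and the AF libraries 23.8, 14.7, 21.9, 22.2 and 26.3, a log2 difference of 1.67 (SE 0.16, limma adjusted p = 9.67e-06). Its paralog Ulk2 was at 26.0, 22.0, 25.8, 25.0 and 25.3 in NP vehicle and 17.6, 18.0, 18.9, 17.1 and 17.4 in AF vehicle, also without overlap but with a smaller log2 difference of 0.46 (SE 0.08, limma adjusted p = 0.00063). Ulk1 accordingly made up 67.4% ± 4.24 of the sum of both kinases in NP vehicle and 54.7% ± 4.45 in AF vehicle (SD, n = 5). Atg13, the adaptor of the complex, was at 18.8 ± 0.888 in NP vehicle and 15.0 ± 1.68 in AF vehicle (SD, n = 5), and higher in NP by 0.32 (SE 0.09, limma adjusted p = 0.014) in vehicle mice and 0.36 (SE 0.11, limma adjusted p = 0.0132) in MDL-800 mice.

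Atg101, the partner of Atg13, was lower in NP. It was at 4.20, 3.95, 5.36, 6.26 and 7.25 in NP vehicle and 12.6, 11.2, 8.58, 7.29 and 12.3 in AF vehicle, without overlap, a log2 difference of -0.83 (SE 0.19, limma adjusted p = 0.00328). In MDL-800 mice the log2 difference was -0.65 (SE 0.20, limma adjusted p = 0.0154), and under quantile normalization its adjusted p there was 0.159. Rb1cc1 (FIP200), the scaffold of the complex, was at 41.0 ± 2.97 in NP vehicle and 39.3 ± 2.61 in AF vehicle (SD, n = 5) and was called in neither comparison.

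In the lipid kinase complex 1 of 6 genes was lower in NP, 1 was higher and 4 were not called, in both comparisons. The background was 33.9% lower and 21.8% higher in vehicle mice, and 37.2% and 25.6% in MDL-800 mice. Becn1 (beclin 1, the regulatory subunit, chromosome 11, 101285952 to 101302286) was at 32.4, 28.7, 34.9, 28.5 and 30.7 in NP vehicle and 48.9, 54.0, 48.0, 48.0 and 48.2 in AF vehicle. No NP library reached the AF range, and the log2 difference was -0.66 (SE 0.08, limma adjusted p = 9.3e-05). After MDL-800 the NP libraries had 31.6, 28.3, 28.4, 28.4 and 25.6 for Becn1, and the AF libraries 47.2, 52.6, 59.4, 40.1 and 54.4, a log2 difference of -0.80 (SE 0.11, limma adjusted p = 9.15e-05). The catalytic subunit Pik3c3 (Vps34), its protein kinase partner Pik3r4 (Vps15), and the alternative subunits Atg14 and Uvrag were called in neither comparison. Their group means in vehicle mice were 11.0 ± 0.726 and 11.9 ± 0.489 for Pik3c3, 12.8 ± 0.891 and 11.6 ± 1.29 for Pik3r4, 4.02 ± 0.599 and 3.89 ± 0.396 for Atg14, and 14.2 ± 1.76 and 15.9 ± 0.867 for Uvrag, NP first (SD, n = 5). With the GC trend removed, Pik3r4 was called higher in NP in both comparisons. Its log2 differences were then 0.40 (limma adjusted p = 0.005) in vehicle and 0.47 (limma adjusted p = 0.00207) in MDL-800 mice. In that setting Atg14 was at 0.28 (limma adjusted p = 0.0589) and 0.27 (limma adjusted p = 0.0495). Uvrag shares a repeat with transcripts of other genes, so its reads may be split. Ambra1, a scaffold that binds Becn1, was at 18.5 ± 1.85 and 15.2 ± 1.31 in vehicle mice (SD, n = 5). It was higher in NP by 0.27 (SE 0.10, limma adjusted p = 0.0365) and 0.22 (SE 0.08, limma adjusted p = 0.0341), calls that were lost when any of 8 of the 10 libraries was left out in either comparison.

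The proteins that read the lipid mark or carry lipid differed in both directions. Wipi1, which binds the lipid mark, was at 16.1, 13.8, 15.8, 25.4 and 21.1 in NP vehicle and 34.5, 25.0, 28.3, 28.2 and 29.1 in AF vehicle, with a small overlap and a log2 difference of -0.65 (SE 0.16, limma adjusted p = 0.00499). With the GC trend removed it was -0.38 (adjusted p = 0.055), and in MDL-800 mice -0.49 (SE 0.13, limma adjusted p = 0.0077) became -0.21 (adjusted p = 0.182). Wipi2, which recruits Atg16l1 to that mark, was at 13.4, 14.8, 14.3, 15.3 and 14.7 and 18.4, 19.8, 18.2, 17.4 and 19.6, without overlap, with a log2 difference of -0.34 (SE 0.08, limma adjusted p = 0.00375). It was -0.12 (adjusted p = 0.203) under quantile normalization and -0.068 (adjusted p = 0.463) with the GC trend removed. Atg2b, a lipid transfer protein, was the member of this role that was higher in NP, at 18.0, 19.3, 19.2, 16.0 and 17.9 and 11.3, 13.6, 13.4, 13.7 and 13.3 in vehicle mice, a log2 difference of 0.44 (SE 0.09, limma adjusted p = 0.00187). Its paralog Atg2a was at 7.71 ± 1.63 and 7.74 ± 2.18 (SD, n = 5) and was not called. The lipid scramblase Atg9a was at 14.9 ± 2.31 and 18.5 ± 1.69, with an adjusted p of 0.0543.

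Of the 10 conjugation genes 6 were lower in NP in vehicle mice (background 33.9%), 1 was higher (background 21.8%) and 3 were not called. Under MDL-800 treatment the counts were 5, 1 and 4 (background 37.2% lower and 25.6% higher). Atg4a, a protease that trims Atg8 proteins, had the largest fall of all members (X chromosome, 140956907 to 141164270). It was at 6.17, 6.59, 7.54, 7.08 and 7.62 in NP vehicle and 20.0, 22.1, 20.6, 20.4 and 16.8 in AF vehicle, with the highest NP library far below the lowest AF library. The log2 difference was -1.39 (SE 0.10, limma adjusted p = 5.05e-06), or 2.62-fold lower. In MDL-800 mice the NP libraries had 7.78, 8.90, 7.43, 5.90 and 7.04 for Atg4a, and the AF libraries 20.2, 17.6, 25.9, 14.9 and 27.5, a log2 difference of -1.38 (SE 0.17, limma adjusted p = 4.73e-05). Among the 4 Atg4 proteases Atg4a made up 15.2% ± 1.65 of the summed level in NP vehicle and 28.3% ± 1.83 in AF vehicle (SD, n = 5), over ranges of 12.6% to 17.0% and 26.0% to 30.9%. Atg4b, the most abundant of the 4, was at 23.4 ± 3.52 and 30.1 ± 3.55 with a log2 difference of -0.35 (SE 0.12, limma adjusted p = 0.0288). That call was lost without AF vehicle library 9 or 10 or NP vehicle library 2 or 3 (log2 differences of -0.32 to -0.29, adjusted p of 0.0628 to 0.0718), and the difference was -0.12 (adjusted p = 0.411) with the GC trend removed and -0.18 (adjusted p = 0.223) under quantile normalization. Atg4c was at 7.82 ± 0.335 and 7.79 ± 0.424 and was not called. The 5 AF MDL-800 libraries spread more widely in Atg4a and Atg4b than the other groups, with libraries 28 and 30 highest in both.

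Atg7, the activating enzyme of both conjugation reactions, was at 7.66, 6.49, 7.85, 8.96 and 12.1 in NP vehicle and 21.4, 15.6, 14.1, 12.0 and 23.4 in AF vehicle. The highest NP library, 6, was just above the lowest AF library, 12, and the log2 difference was -0.91 (SE 0.20, limma adjusted p = 0.00283). After MDL-800 the groups did not overlap, at 9.40, 9.35, 9.25, 6.57 and 10.0 in NP and 15.6, 10.7, 18.7, 14.9 and 28.2 in AF, a log2 difference of -0.86 (SE 0.21, limma adjusted p = 0.00506). The 2 AF vehicle libraries with most Atg7, 8 and 13, also had the highest neutrophil marker sums (20570 and 20054, against 7863 to 11937 in the other 3). AF MDL-800 library 30 was likewise highest in both, with a neutrophil sum of 35090 against 6449 to 18428. The part of neutrophils in the Atg7 difference was not tested.

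Atg5, which is joined to Atg12 in the conjugate that helps place Atg8 proteins on the membrane, was at 8.40, 7.65, 8.24, 7.27 and 8.53 in NP vehicle and 13.5, 10.8, 10.5, 13.3 and 12.6 in AF vehicle. Its groups did not overlap in either comparison, and the log2 differences were -0.54 (SE 0.10, limma adjusted p = 0.00115) and -0.48 (SE 0.09, limma adjusted p = 0.000794). Under quantile normalization they were -0.23 (adjusted p = 0.0596) and -0.19 (adjusted p = 0.0724). Atg3, the enzyme that hands Atg8 proteins to the lipid, was at 18.1 ± 1.29 and 23.5 ± 2.51 in vehicle mice (SD, n = 5), with log2 differences of -0.36 (SE 0.10, limma adjusted p = 0.00919) there and -0.35 (SE 0.10, limma adjusted p = 0.0113) in MDL-800 mice. Under quantile normalization these were -0.16 (adjusted p = 0.151) and -0.16 (adjusted p = 0.176). Atg10, the enzyme that joins Atg12 to Atg5, was the conjugation gene that was higher in NP, at 7.65, 8.35, 5.64, 7.19 and 6.41 and 4.01, 5.30, 4.81, 5.39 and 3.47 in vehicle mice, a log2 difference of 0.53 (SE 0.14, limma adjusted p = 0.00846). Atg12 itself was at 19.4 ± 3.34 and 18.6 ± 2.16, and Atg16l1, which binds the conjugate, at 10.8 ± 0.679 and 12.5 ± 1.3 (SD, n = 5), both not called. Atg4d was at 8.01 ± 2.46 and 12.8 ± 3.69 (SD, n = 5) and was called lower in vehicle mice at -0.62 (SE 0.24, limma adjusted p = 0.0442), which was lost when any of 7 of the 10 libraries was left out and was -0.32 (adjusted p = 0.164) with the GC trend removed. For this gene 792 bases of its transcript lie opposite the gene Kri1, and the sources used here do not say that counting used strand.

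**Figure D3:**
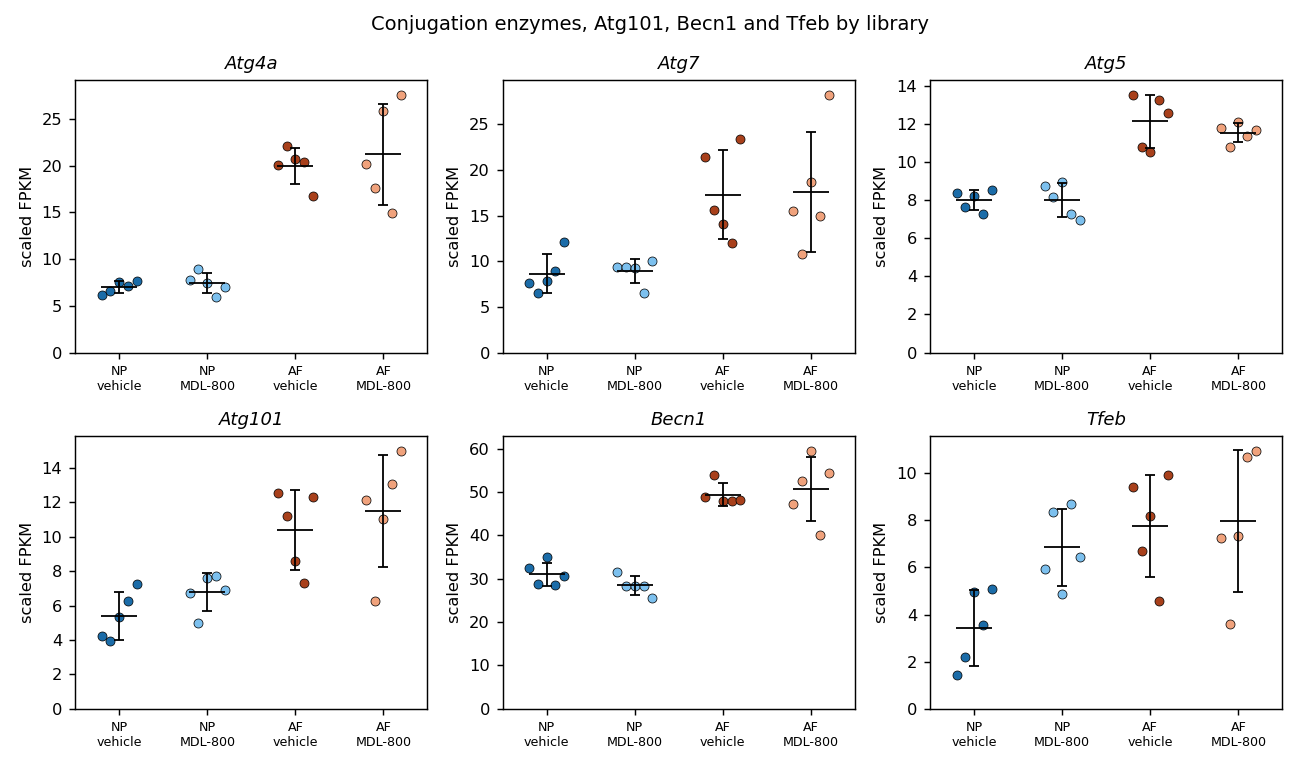
Scaled FPKM by library (points, in order of library number) with mean and SD (bars, n = 5) for 3 conjugation genes, Atg101, Becn1 and Tfeb in the 4 groups. Atg4a lies between 5.90 and 8.90 in NP and between 14.9 and 27.5 in AF; in Tfeb the NP and AF libraries overlap.

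The Atg8 genes encode the proteins that the conjugation enzymes attach to membranes. None of the 5 was called in vehicle mice, with log2 differences of 0.10 to 0.36, and 2 were called higher in NP in MDL-800 mice (background 25.6%). These results depend on the GC trend. With it removed, Map1lc3b, Gabarap, Gabarapl1 and Gabarapl2 were called higher in NP in vehicle mice. Their log2 differences were then 0.53, 0.36, 0.38 and 0.51 (limma adjusted p of 0.00501, 0.016, 0.00779 and 0.0158). In MDL-800 mice all 5 were then called higher in NP (limma adjusted p of 0.000275 to 0.0427). Gabarap was the most abundant, at 382, 385, 316, 345 and 347 in NP vehicle and 341, 353, 312, 369.9 and 285 in AF vehicle. Map1lc3b (LC3B, the usual marker protein of autophagosomes) was at 175, 181, 145, 135 and 142 in NP vehicle and 122, 163, 129, 129 and 108 in AF vehicle, with overlapping ranges and a log2 difference of 0.26 (SE 0.13, limma adjusted p = 0.118). Under MDL-800 treatment the NP libraries had 151, 134, 151, 158 and 169.7, and the AF libraries 136, 123, 120.5, 108 and 129 and was called, at 0.31 (SE 0.09, limma adjusted p = 0.0121), though not without scaling (adjusted p = 0.0595). Gabarapl1 was at 87.3, 103, 112, 99.4 and 99.2 in NP vehicle and 91.3, 90.0, 110.4, 91.7 and 85.2 in AF vehicle, nearly the same range, with a log2 difference of 0.10 (SE 0.10, limma adjusted p = 0.43). In MDL-800 mice it was at 102, 94.8, 85.7, 110.4 and 96.5 and 92.3, 106, 88.3, 85.0 and 79.0, a log2 difference of 0.12 (SE 0.10, limma adjusted p = 0.31).

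Map1lc3a (LC3A) had a wide spread between libraries. It was at 54.6, 59.5, 103, 106 and 86.0 in NP vehicle, where libraries 1 and 2 were far below the other 3, and at 51.8, 92.4, 86.5, 72.2 and 54.9 in AF vehicle. In MDL-800 mice the NP libraries had 100.3, 93.3, 103, 102 and 105, and the AF libraries 85.9, 54.9, 42.9, 119 and 54.4, so that the NP libraries were close together and the AF libraries spread widely. Its call in that comparison, 0.59 (SE 0.23, limma adjusted p = 0.0477), was lost without AF MDL-800 library 27 or 28 or 30 or NP MDL-800 library 15 or 18 or 19 or 20 or 22 (log2 differences of 0.43 to 0.62, adjusted p of 0.0654 to 0.109). Gabarapl2 was at 105 ± 18.8 and 81.7 ± 15.6 in vehicle mice (SD, n = 5), with an adjusted p of 0.0743. Summed over the family, the level was 798 ± 30.2 in NP vehicle and 709 ± 76.4 in AF vehicle, while the 10 conjugation genes together stood at 118 ± 6 and 159 ± 7.43 (SD, n = 5).

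**Figure D4:**
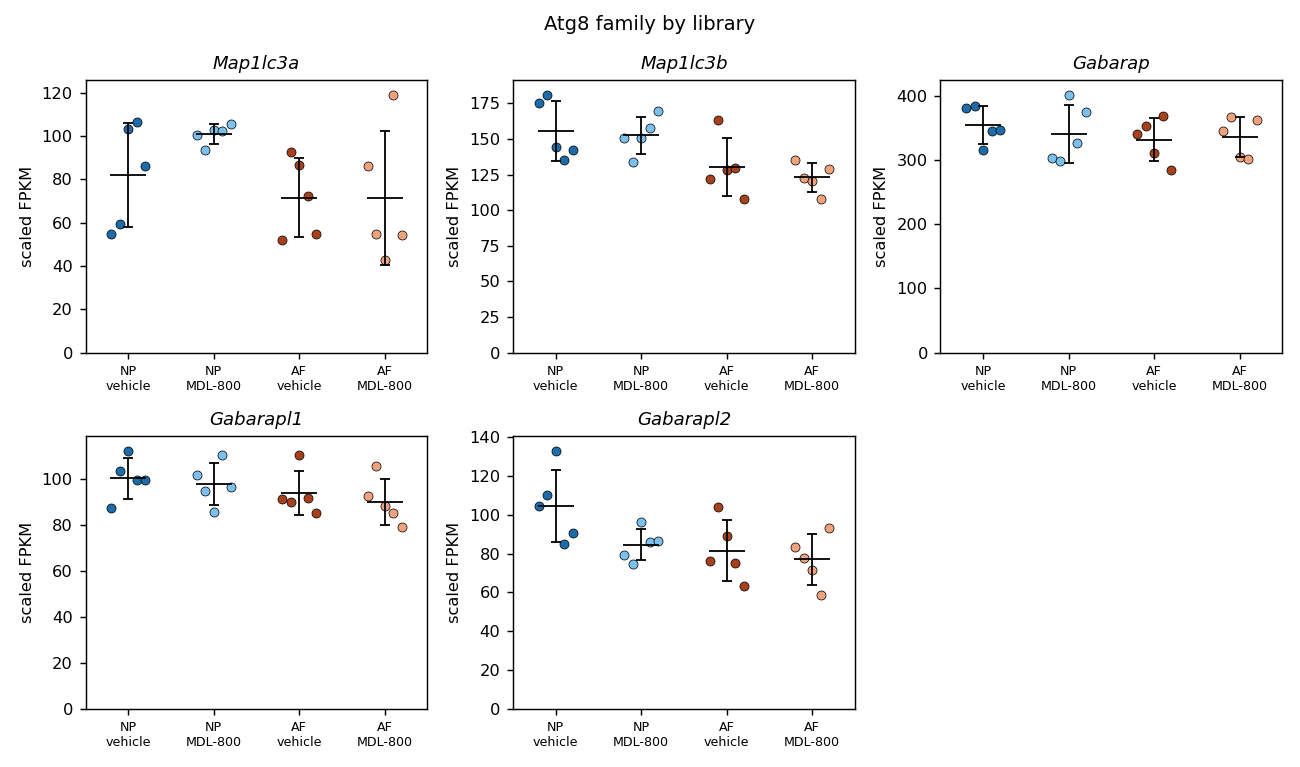
Scaled FPKM by library (points, in order of library number) with mean and SD (bars, n = 5) for the 5 Atg8 genes in the 4 groups. The ranges of NP and AF overlap for each gene, and in Map1lc3a the first 2 NP vehicle libraries, at 54.6 and 59.5, lie below the other NP libraries.

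The 3 MiT transcription factors, which drive genes of lysosomes and autophagy, were divided. Mitf was higher in NP, at 36.1, 28.9, 20.8, 18.1 and 23.1 in NP vehicle and 13.8, 12.5, 14.0, 18.9 and 13.4 in AF vehicle, with the lowest NP library below the highest AF library and a log2 difference of 0.74 (SE 0.18, limma adjusted p = 0.00525). After MDL-800 the difference was 0.45 (SE 0.15, limma adjusted p = 0.0228), lost without AF MDL-800 library 28 or 30 or NP MDL-800 library 19 or 22 (log2 differences of 0.38 to 0.41, adjusted p of 0.0519 to 0.0578). Tfeb (chromosome 17, 47737030 to 47792419) was at 1.43, 2.18, 4.94, 3.54 and 5.08 in NP vehicle and 9.41, 6.70, 8.17, 4.59 and 9.91 in AF vehicle. It was called lower in NP in vehicle mice, at -1.03 (SE 0.28, limma adjusted p = 0.00949), with an adjusted p of 0.0695 under quantile normalization. Under MDL-800 treatment the NP libraries had 5.92, 8.34, 4.86, 8.71 and 6.45 for Tfeb, and the AF libraries 7.26, 3.58, 7.32, 10.7 and 10.9, overlapping, with a log2 difference of -0.14 (SE 0.26, limma adjusted p = 0.666). Tfe3 was at 13.2 ± 1.47 in NP vehicle and 16.7 ± 1.71 in AF vehicle (SD, n = 5) and was called lower, at -0.32 (SE 0.11, limma adjusted p = 0.0249), a call lost without AF vehicle library 8 or 13 or NP vehicle library 1 (log2 differences of -0.30 to -0.26, adjusted p of 0.0545 to 0.0628). With the GC trend removed its difference was -0.047 (adjusted p = 0.721), and under quantile normalization -0.08 (adjusted p = 0.502). Mitf made up 59.6% ± 10.1 of the sum of the 3 factors in NP vehicle and 37.4% ± 6.26 in AF vehicle, ranges of 51.0% to 74.5% and 32.7% to 48.0%. In MDL-800 mice the ranges overlapped, at 40.5% to 56.5% in NP and 30.9% to 47.6% in AF (means 51.6% and 39.7%). The NP vehicle libraries with most Mitf, 1 and 2, had the lowest slopes on GC content, given below. The part of that trend in these shares was not tested.

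The second question of the design is what MDL-800 changes within each compartment. In NP no autophagy gene was called with limma (0 of 43, where 0.25% of all genes tested were, 41 in number), and the smallest adjusted p among members was 0.105. At an unadjusted p under 0.05 there were 9 members (20.9%, background 14.1%), 6 higher (background 9.11%) and 3 lower (background 4.99%) with MDL-800. The 6 with higher values were Atg2a, Pink1, Calcoco1, Tfeb, Ulk1 and Atg9a, and the 3 with lower values were Gabarapl2, Fundc1 and Bnip3l. The groups did not overlap for 4 members (9.30%, background 4.5%). The median log2 difference of the members was -0.02, and that of all genes was -0.03.

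Atg2a had the smallest p. It was at 4.97, 7.71, 7.98, 8.84 and 9.04 in NP vehicle and 10.7, 12.4, 10.3, 13.2 and 12.1 in NP MDL-800, without overlap, a log2 difference of 0.57 (SE 0.14, limma adjusted p = 0.105), with an unadjusted p of 0.00239. Its share of the sum of Atg2a and Atg2b was 21.6% to 35.6% in the vehicle libraries and 40.8% to 42.9% in the MDL-800 libraries. Pink1, with the values given above, had a log2 difference of 0.37 (SE 0.10, limma adjusted p = 0.108) and no overlap. Calcoco1 had a difference of 0.41 (SE 0.11, limma adjusted p = 0.132), also without overlap. Tfeb had the largest difference in size, 0.89 (SE 0.26, limma adjusted p = 0.157), with NP vehicle libraries 1 and 2, at 1.43 and 2.18, lowest of all. The differences of Ulk1 and Atg9a were 0.44 (SE 0.14, limma adjusted p = 0.202) and 0.34 (SE 0.12, limma adjusted p = 0.21). Bnip3l was the member whose vehicle libraries all lay above the MDL-800 libraries, with a difference of -0.17 (SE 0.08, limma adjusted p = 0.349). Gabarapl2 and Fundc1 had differences of -0.29 (SE 0.12, limma adjusted p = 0.31) and -0.21 (SE 0.09, limma adjusted p = 0.31), with overlap.

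Among the other genes followed throughout, Bnip3 had a log2 difference of 0.01 (SE 0.11, limma adjusted p = 0.99) with MDL-800 in NP, Sqstm1 -0.18 (SE 0.10, limma adjusted p = 0.44), and Becn1 -0.12 (SE 0.08, limma adjusted p = 0.524). In the Atg8 family the differences were 0.35 (SE 0.18, limma adjusted p = 0.427) for Map1lc3a, -0.02 (SE 0.10, limma adjusted p = 0.953) for Map1lc3b and -0.04 (SE 0.08, limma adjusted p = 0.895) for Gabarapl1. The signs of Bnip3 and Map1lc3b changed with the scaling, and that of Map1lc3a changed when the GC trend was removed (-0.12).

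GC content of the genes moved with this comparison. The 6 members with higher values had a GC content of 56.0% or more (median 58.5%), and the 3 with lower values one of 45.3% or less (median 41.9%). Across the 43 members Pearson's r between GC content and the log2 difference was 0.74, against 0.37 across all genes tested and 0.19 across the members in AF. Genes share the libraries, so these values are descriptions. The slope of each library's values on GC content, in log2 units per 10 points, was -0.28 in both of the NP vehicle libraries 1 and 2 and -0.05 to -0.01 in the other 3, and it was 0.02 to 0.09 in NP MDL-800, so the slopes of the groups did not overlap. With the GC trend of each library removed, 1 of the 43 members, Tfeb, had an unadjusted p under 0.05 (limma log2 difference 0.42, adjusted p = 0.464). That is 2.33% of the members, where 10.3% of all genes tested had such a p. Without the 4 libraries that had a slope under -0.1 (NP vehicle 1 and 2, AF vehicle 12 and AF MDL-800 27), 4 did (9.30%, against 10.5% of all genes): Atg2a at 0.40, Calcoco1 at 0.46, Pink1 at 0.27 and Tfeb at 0.50, with none called.

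**Figure D5:**
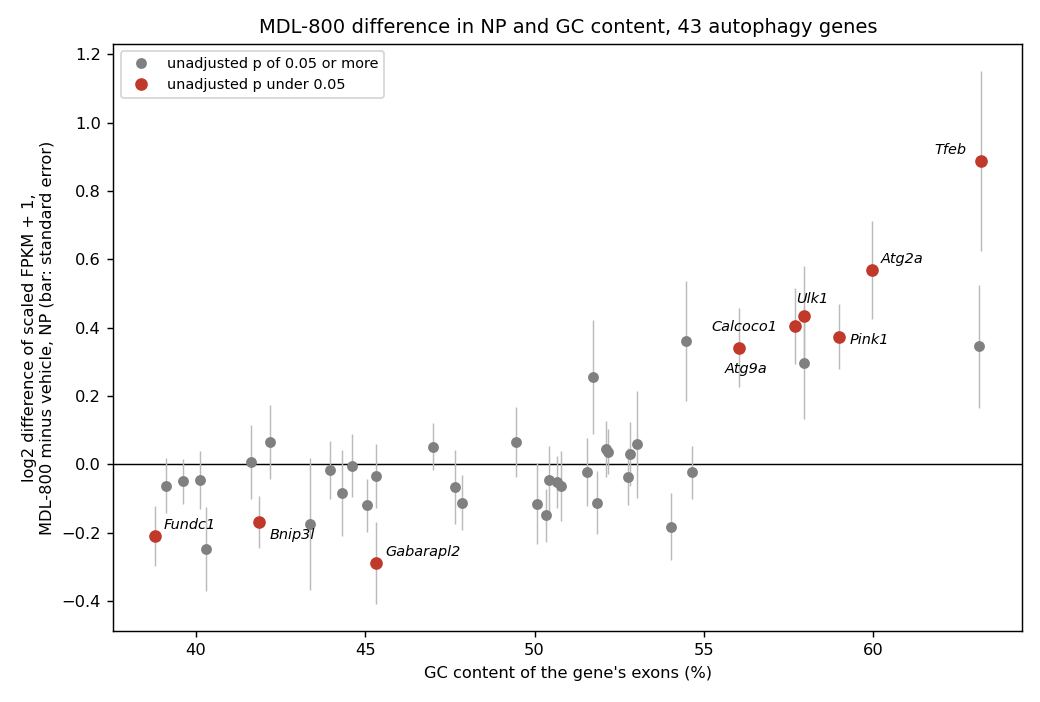
Log2 difference between MDL-800 and vehicle in NP (y axis, with standard error) against GC content (x axis, percent) for the 43 autophagy genes. GC content is that of the gene's exons in its longest transcript. Red points have a limma unadjusted p under 0.05. The 6 red points above 0 have a GC content of 56.0% or more, and the 3 below 0 one of 45.3% or less.

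In AF no member was called, and none reached an unadjusted p under 0.05, where 0% and 1.65% of all genes tested did. The members with the smallest p in AF were Calcoco1, Mitf and Wipi2 with higher values in MDL-800 (0.20, 0.11 and 0.09 on the log2 scale) and Pik3r4, Pik3c3 and Atg14 with lower values (-0.18, -0.08 and -0.07). Their unadjusted p ranged from 0.158 to 0.526, and every limma adjusted p was 1. Ulk1 in AF, for instance, had means of 21.9 ± 4.32 in vehicle and 21.8 ± 4.32 in MDL-800 mice (SD, n = 5). Which tissue had the wider spread between libraries differed by gene. Bnip3 had an SD of 116 around 255 in AF vehicle and of 89.9 around 876 in NP vehicle. Wipi1 had an SD of 3.47 around 29.0 in AF vehicle and of 4.71 around 18.4 in NP vehicle.

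Whether the MDL-800 difference itself differed between NP and AF was tested in a fit of all 4 groups. No member was called (0 of 43, background 0%), and 2 had an unadjusted p under 0.05 (4.65%, background 3.73%). Tfeb had a log2 difference of 0.89 between the tissues' treatment differences (SE 0.40, unadjusted p = 0.0374), and Pink1 one of 0.47 (SE 0.22, unadjusted p = 0.046). Both had a limma adjusted p of 0.9997. Without the 4 libraries of low GC slope, Tfeb was at 0.43 (limma unadjusted p = 0.127) and Pink1 at 0.38 (limma unadjusted p = 0.16). With the GC trend removed, Tfeb was at 0.56 (limma unadjusted p = 0.0347) and Pink1 at 0.27 (limma unadjusted p = 0.295). The calls that Tfeb and Atg4d had in vehicle mice alone, and Tax1bp1, Map1lc3a and Map1lc3b in MDL-800 mice alone, are therefore not shown to differ between treatments. The tissue comparison in vehicle mice and the treatment comparison in NP share the NP vehicle libraries, in which Tfeb was lowest.

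Genes around this machinery were followed with lists of 90 other genes, of which 88 were tested. In vehicle mice 21 were higher in NP and 20 lower (46.6% called), and in MDL-800 mice 24 were higher and 19 lower (48.9%), where 55.7% and 62.8% of all genes were called. Over all genes, 21.8% were called higher and 33.9% lower in vehicle mice, the background for each list that follows. Of 12 genes of mTORC1, the kinase that restrains Ulk1, and its inhibitors, 5 were higher in NP vehicle and 1 lower. They included Sesn3 (297 ± 59.3 against 66.2 ± 30.7, log2 difference 2.27) and Ddit4 (61.8 ± 21.3 against 27.7 ± 10.1, 1.15), and, lower in NP, Deptor (3.28 ± 1.2 against 8.96 ± 3.21, -1.21). All 3 encode inhibitors of the pathway, so its inhibitors differed in both directions. Of 12 Rag, Ragulator and folliculin genes, which tether mTORC1 to lysosomes, 4 were higher and 0 lower, led by Rragb (12.5 ± 1.93 against 4.50 ± 1.68, 1.33) and Rragc (62.6 ± 5.56 against 42.6 ± 3.32, 0.54). AMPK, the energy sensor that phosphorylates Ulk1, had 1 of 7 genes higher, the catalytic subunit Prkaa2 (20.3 ± 3.61 against 8.23 ± 4.19, 1.31), and 1 lower, Prkab1 (14.0 ± 3.5 against 27.5 ± 6.1, -0.93). All values in this paragraph are means with SD over 5 libraries a group, NP first.

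Among the 17 tested of the other core and accessory autophagy genes 9 were lower in NP vehicle (background 33.9%) and 3 higher (background 21.8%). The death-associated kinase Dapk1 had the largest difference (0.39 ± 0.16 against 10.3 ± 2.66, log2 difference -2.99), followed by Trp53inp1 (9.98 ± 1.72 against 21.0 ± 3.92, -0.998) and Bcl2 (4.67 ± 0.385 against 9.62 ± 1.84, -0.89), which binds Becn1. Of the 11 tested of the other selective receptors 4 were higher and 4 lower. Ncoa4, the receptor for ferritin, was lower in NP (26.6 ± 4.1 against 92.1 ± 14.3, -1.75), and Ccpg1, a receptor of the endoplasmic reticulum, was higher (112 ± 15.2 against 63.8 ± 9.79, 0.80). AF libraries also held more red cell and macrophage marker RNA, with the sums given above, and the part of these cells in the Ncoa4 difference was not tested. Of 10 other mitophagy genes 2 were higher and 2 lower, of 16 genes for fusion with the lysosome 2 and 2, and of 3 FoxO factors 0 and 1. With MDL-800 none of the 88 was called in NP or AF with limma, and 16 in NP (18.2%, where 14.1% of all genes did) and 0 in AF (1.65% of all genes) had an unadjusted p under 0.05.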

How the data were processed

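RNA of NP and AF from 20 libraries was measured by stranded total RNA sequencing after depletion of ribosomal RNA, per the labels' protocols. The authors deposited a table of FPKM for 51789 genes. Per the submitters' processing notes, STAR 2.7.11b and the build mm10 were used. The counting program and its strand setting are not given in the sources used here. Depth, estimated from the steps between low values, limits the precision of low genes, and 79.4% to 84% of these values lay within 0.15 of a whole read, so no counts were recovered. FPKM values were divided by a median ratio per library over 11308 genes (factors 0.933 to 1.06), and log2(scaled FPKM + 1) was tested with limma 3.58.1 in R 4.3.3 (lmFit, eBayes with trend, two-sided, Benjamini-Hochberg over 16383 genes with 1 FPKM or more in at least 5 libraries), on the 2 groups compared or, for the interaction, all 4. The test was checked on simulated data. In that check few genes were changed, and most genes given a small change were missed, so a lack of calls does not show a lack of difference. The tissue comparisons, with most genes called, differ from that setting, so the share missed does not carry over to them. Fold changes on this scale understate those of low genes. Coordinates, GC content and transcripts came from GENCODE M21 (GRCm38, 51596 genes matched). Transcripts were compared with BLAST+ 2.17.0 for near-identical copies, whose pseudogenes had a mean of at most 1.24 FPKM, and for overlaps on the opposite strand.

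The members and lists were chosen with earlier results of these data known. Named throughout were Ulk1, Becn1, Map1lc3a, Map1lc3b, Gabarapl1, Sqstm1, Bnip3, Bnip3l and Tfeb, and in each comparison the 5 largest called differences in each direction or, with fewer than 3 calls, the 3 smallest p in each direction. Others are given with group means and, where tested, the difference. Alternatives were other scalings, a pseudocount of 0.1, other filters, all 4 groups in 1 fit, removal of the GC trend and leaving out each library. The fits without the 4 libraries of low GC slope and with a block were added after the data were seen. Python 3.11.15 drew the plots.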

Additional observations from a re-analysis of the deposited data

Results flagged for a closer look

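In 11 of the 172 sets of 5 libraries (43 genes in 4 groups) a single library lay far from the other 4, with a gap of over 0.71 of the whole range. Chance alone gives about 1 in 20. In NP vehicle, Ulk2 was lowest in library 2, at 22.0 scaled FPKM against 25.0 to 26.0 in the others, Pik3r4 was lowest in library 6, at 11.2 scaled FPKM against 12.9 to 13.3 in the others, Tax1bp1 was lowest in library 3, at 54.8 scaled FPKM against 63.8 to 67.3 in the others. In NP MDL-800, Pik3c3 was highest in library 20, at 11.6 scaled FPKM against 9.46 to 9.93 in the others, Atg7 was lowest in library 20, at 6.57 scaled FPKM against 9.25 to 10.0 in the others. In AF vehicle, Becn1 was highest in library 9, at 54.0 scaled FPKM against 48.0 to 48.9 in the others, Atg2b was lowest in library 8, at 11.3 scaled FPKM against 13.3 to 13.7 in the others, Gabarapl1 was highest in library 10, at 110.4 scaled FPKM against 85.2 to 91.7 in the others, Mitf was highest in library 12, at 18.9 scaled FPKM against 12.5 to 14.0 in the others. In AF MDL-800, Rb1cc1 was lowest in library 25, at 37.4 scaled FPKM against 39.8 to 40.5 in the others, Tax1bp1 was highest in library 30, at 84.9 scaled FPKM against 68.4 to 72.5 in the others.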

How the results depend on the processing

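The counts of called members stayed within 1.5 times the reported ones in all other settings, apart from the replicate block in MDL-800 mice. Leaving out each library gave 23 to 26 called members in vehicle mice and 22 to 28 in MDL-800 mice, and 0 in both treatment comparisons and the interaction. Without the 4 libraries with a low GC slope, a choice made after seeing the data, 23 members were called in vehicle mice (13 higher, 10 lower) and 28 in MDL-800 mice (15 and 13). The column headers give some NP and AF libraries a shared number, which the labels do not explain. Deviations of same-numbered libraries correlated at -0.18 to 0.29, above 0.1 in 3 of 8 pairs, and 2 of 8 NP libraries matched their own number best. Whether a number marks 1 mouse is not known, and the reported fits do not use it. With this replicate block, also added after seeing the data, 24 members were called in vehicle mice (15 higher, 9 lower) and 18 in MDL-800 mice (10 and 8), and 0 in the interaction. In MDL-800 mice only the numbers 36, 37 and 39 were shared between the tissues, so the block fit there compared NP with AF within those libraries only.

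Several small differences changed sign, and the cause was not tested. In MDL-800 mice the tissue difference of Tfeb was 0.22 under quantile normalization, and that of Tfe3 0.038 with the GC trend removed. For MDL-800 in NP, Bnip3 was -0.010 without scaling, -0.064 under quantile normalization, -0.035 with the protein-coding sum and -0.020 without the 4 libraries. Map1lc3b was 0.0031 under quantile normalization and 0.11 without the 4 libraries, and Map1lc3a -0.12 with the GC trend removed. In AF, Becn1 was -0.0032 with the protein-coding sum, and without the 4 libraries Ulk1 was 0.026, Map1lc3a 0.018 and Tfeb 0.064. Leaving out each library gave, in AF, -0.033 to 0.11 for Becn1, -0.36 to 0.051 for Bnip3, -0.046 to 0.19 for Bnip3l, -0.12 to 0.0019 for Gabarapl1, -0.27 to 0.092 for Map1lc3a, -0.13 to 0.014 for Map1lc3b, -0.17 to 0.040 for Sqstm1, -0.16 to 0.22 for Tfeb and -0.10 to 0.12 for Ulk1. In NP it gave -0.043 to 0.062 for Bnip3, -0.084 to 0.010 for Gabarapl1 and -0.069 to 0.035 for Map1lc3b. In the interaction it gave -0.045 to 0.37 for Bnip3, -0.038 to 0.081 for Gabarapl1 and -0.035 to 0.11 for Map1lc3b. In NP the number of members with an unadjusted p under 0.05 ranged from 6 to 11, and the number of all genes called from 2 to 189 when 1 library was left out and from 4 to 230 over the other settings.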
